A study of Ovis aries with 16 samples.

Results

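Iron handling was followed through 6 genes in fat of female sheep: TF (transferrin), TFRC, SLC11A2, FTH1, SLC40A1 and CP. They are the genes that a fixed set of gene names picks from the 28524 genes of the deposited count table. The rows of 5 of them carry the symbol itself, and SLC11A2 was matched by its gene number. The genes were chosen by name with measured values of these libraries known, among them the CPM of TF in both fat depots, so the depot difference of TF is given as a description, with no test. The same holds for the depot differences of the other genes chosen with it. The effects of prenatal bisphenol A (BPA) on these genes were tested in a fit across all genes.

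The 16 libraries form 4 groups of 4: visceral fat of BPA ewes, visceral fat of control ewes, subcutaneous fat of BPA ewes and subcutaneous fat of control ewes. BPA, a building block of plastics, is known to bind oestrogen receptors. Mothers of the BPA ewes received 0.5 mg/kg/day in corn oil by subcutaneous injection from gestation day 30 to day 90 of a term of 147 days, and mothers of the control ewes received the oil alone. All ewes were kept on a maintenance diet and sampled at about 21 months of age, 24 hours after the second of a pair of prostaglandin injections that all groups received. Visceral fat was mesenteric and came from beside the rumen (its ventral sac), whereas subcutaneous fat was sternal. Each library is called here by the leading number of its title, taken as the number of the animal. There are 11 such numbers, of which 2 BPA and 3 control numbers occur in both depots. The p-values for BPA against control within a depot measure the spread between 4 ewes per group. The main fits that use both depots treat all libraries as independent and ignore the shared numbers. A fit with the animal number as a block was an alternative.

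Transferrin is the iron carrier of blood plasma, made mainly in the liver. Cells bind it through the transferrin receptor TFRC, take it up by endocytosis, and pass the released iron into the cytosol through the metal transporter SLC11A2 (DMT1). Iron that is not used is stored in ferritin, a shell of heavy (FTH1) and light (FTL) subunits. Ferroportin, encoded by SLC40A1, is the known exporter of iron from mammalian cells and is prominent in macrophages that recycle red cells. Ceruloplasmin (CP) and its membrane-bound relative hephaestin (HEPH) are copper enzymes that oxidize exported iron so that transferrin can bind it. Iron regulatory proteins set the stability of TFRC mRNA and the translation of ferritin mRNA, and mRNA counts do not show translation.

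Library totals ran from 6768945 to 14305764 counts in visceral BPA fat, 10998858 to 13110261 in visceral control fat, 3046126 to 4828287 in subcutaneous BPA fat and 4738482 to 6223460 in subcutaneous control fat. All 11 adipocyte markers examined were counted, and their summed level was 18435 to 30119, 24849 to 35723, 16744 to 28951 and 13575 to 28183 CPM in the same order of groups, where CPM is the gene's count scaled to the library total by edgeR. In principal components of log2 CPM over 14793 genes, the first component (32.9% of the variance) separated the depots. The second (14.6%) set visceral BPA library 977 apart at -95.5, with all other libraries between -18.8 and 26.3. On the third (10.7%), subcutaneous controls 902 and 924 stood alone at -53.6 and -51.8, with all others between -10.5 and 42.0. For part of the genes named below, the value without these libraries stands beside the main value. Where none is given, the value may still have moved.

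In the annotation deposited with the counts, TF lies on the minus strand as 17 exon blocks of 2579 bases spread over 39978 bases. It shares no exon bases with another gene, and its nearest neighbours are SRPRB, 5907 bases away, and the unnamed gene LOC101117129, 26565 bases away, both on the same strand. TFRC has 20 exon blocks and 5238 exon bases, SLC11A2 19 blocks and 4840 bases, and SLC40A1 8 blocks and 3374 bases, each without an overlapping gene. FTH1 is compact, with 4 blocks and 901 bases, and ends 254 bases from the opposite-strand gene BEST1. CP has 21 blocks and 5614 bases and shares exon bases with HPS3 on the opposite strand. The strand setting of the counting is not given in the sources used here. How reads in the bases shared by CP and HPS3 were counted is therefore not known. No positions are given, because the genome build behind the counts is not named.

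Compared per length, on the TPM scale (counts divided by exon length and by the library's sum of such values), FTH1 was the most abundant of the 6 mRNAs in every group. It averaged 2841 ± 778 TPM in visceral BPA fat, 3224 ± 485 in visceral control fat, 1675 ± 419 in subcutaneous BPA fat and 2080.3 ± 547 in subcutaneous control fat (SD, n = 4 each). By this scale it took between place 12 and place 104 of all genes in the 16 libraries. TF came next in visceral fat, at 190.4 ± 56.8 TPM in BPA ewes and 244 ± 70.2 TPM in control ewes. SLC40A1 followed there at 147 ± 51.8 and 237 ± 56.9 TPM, and its range over libraries overlapped that of TF in both groups.

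In subcutaneous fat the order of TF and SLC40A1 was exchanged. SLC40A1 stood at 105 ± 15.9 TPM in BPA ewes and 217 ± 79.1 TPM in control ewes, and TF at 29.3 ± 9.77 and 37.7 ± 4.05 TPM, with no overlap between the 2 genes in either group. TFRC lay beside TF there, at 27.2 ± 7.49 TPM in BPA ewes and 36.0 ± 16.5 TPM in control ewes, and their ranges overlapped. SLC11A2 was low everywhere, between 3.34 and 7.59 TPM over the 16 libraries. CP did not exceed 0.494 TPM in any library. The TPM ratio of TF to TFRC, carrier over receptor, was 2.62 to 8.76 in visceral BPA fat and 5.80 to 10.3 in visceral control fat. It was 0.806 to 1.41 in subcutaneous BPA fat and 0.593 to 1.87 in subcutaneous control fat.

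**Figure D1:**
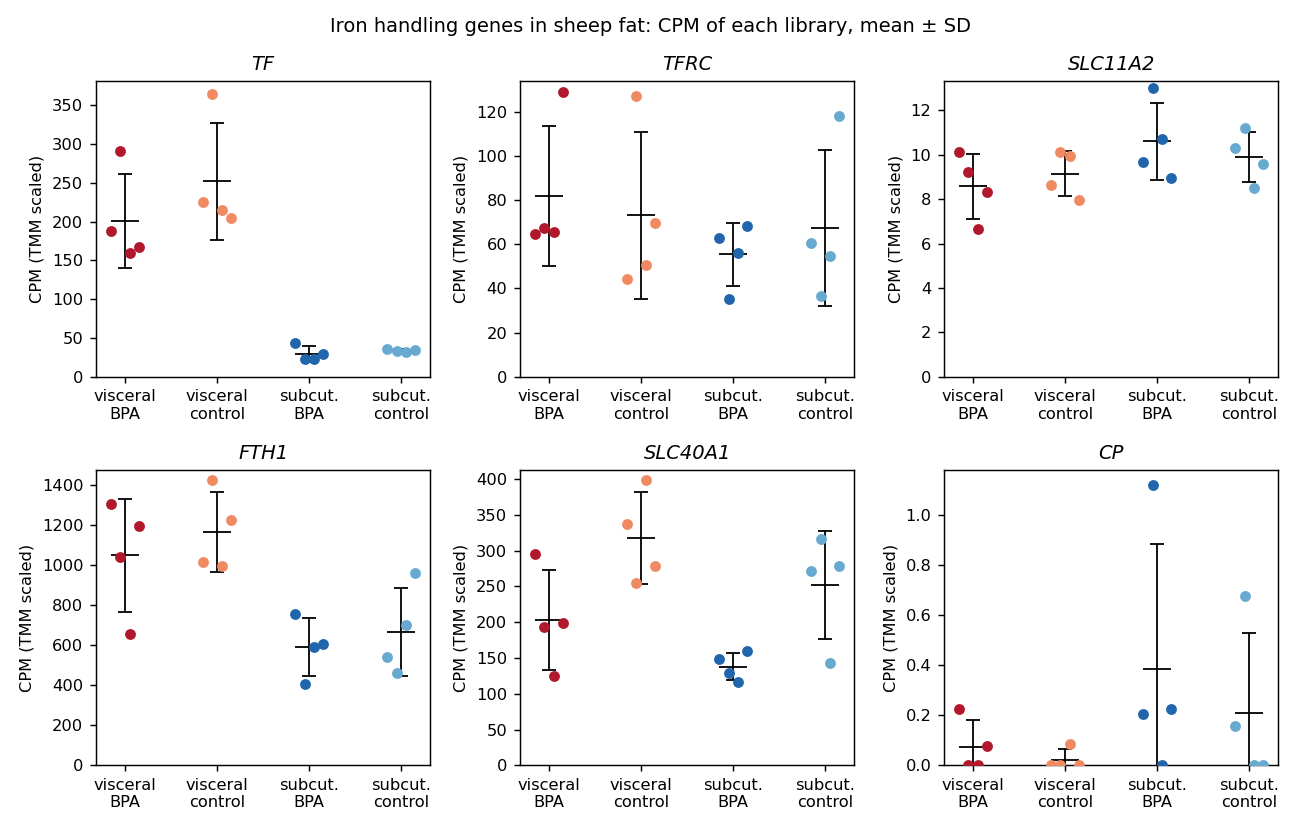
Level of each of the 6 genes in CPM (vertical axes, linear, each with its own scale) in the 16 libraries, by group; points are libraries, the horizontal mark is the mean and the bar is ± 1 SD (n = 4). The 8 visceral libraries hold TF between 159.7 and 364 CPM and the 8 subcutaneous libraries between 22.2 and 43.5 CPM, while the other genes overlap between at least some groups.

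TF, the plasma iron carrier, was the gene with the clearest depot pattern of the 6. Its level was 188, 291, 159.7 and 167 CPM in visceral BPA libraries 910, 918, 977 and 984, against 43.5, 22.6, 22.2 and 29.8 CPM in subcutaneous BPA libraries 918, 922, 941 and 977. In control ewes it was 225, 364, 215 and 204 CPM in visceral libraries 902, 908, 924 and 928, against 35.4, 33.7, 31.8 and 34.5 CPM in subcutaneous libraries 902, 924, 928 and 931. Every visceral library lay above every subcutaneous library, in both treatments. Visceral control 908 was the highest library of all, and the subcutaneous controls lay close together.

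The fitted log2 fold change of TF, visceral over subcutaneous, was 2.75 ± 0.27 SE in BPA ewes (6.73-fold). In control ewes it was 2.89 ± 0.20 SE (7.39-fold). Ordered by log2 fold change, it took place 65 of 13782 genes in BPA ewes and place 56 of 14456 in control ewes. Over every alternative setting tried, the value stayed between 2.52 and 3.0 in BPA ewes and between 2.66 and 2.97 in control ewes. Without visceral BPA 977 it was 2.84, and without subcutaneous controls 902 and 924 it was 2.91. Since this difference was part of how the gene was chosen, it carries no test.

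Between libraries of the same number, taken as the same ewe, the ratio of visceral to subcutaneous TF was 6.68 and 5.36 in BPA ewes 918 and 977, and 6.36, 6.37 and 6.42 in control ewes 902, 924 and 928. All 5 such pairs had the higher level in visceral fat. In bulk fat, fewer cells of a type and less RNA per cell cannot be told apart. Markers of mesothelium, the lining cells of the abdominal cavity, also followed the depot. The summed level of all 9 listed was 30.4 to 286 CPM in visceral BPA fat and 52.3 to 108 CPM in visceral control fat, against 1.85 to 5.59 CPM in subcutaneous BPA fat and 4.10 to 9.36 CPM in subcutaneous control fat. By library, the visceral mesothelial sums were 55.1, 67.4, 286 and 30.4 CPM in BPA ewes 910, 918, 977 and 984. In control ewes 902, 908, 924 and 928 they were 108, 105, 77.4 and 52.3 CPM. The part of mesothelial cells in the TF difference was not tested.

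Markers of hepatocytes, the main source of plasma transferrin, overlapped between the depots. The summed level of the 11 listed was 10.7 to 18.0 CPM in visceral BPA fat, 15.8 to 20.5 CPM in visceral control fat, 13.8 to 23.5 CPM in subcutaneous BPA fat and 13.9 to 28.7 CPM in subcutaneous control fat. Albumin (ALB) reached at most 6.65 CPM in any library. Markers of Schwann cells summed to 229 to 480.1, 355 to 729, 179.6 to 278 and 148 to 404 CPM in the same order of groups. Most of that sum was S100B, which adipocytes also express. Their part in the TF difference was not tested.

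BPA and control ewes did not differ in TF beyond the spread between animals in either depot. In visceral fat the level averaged 201 ± 60.8 CPM in BPA ewes and 252 ± 75.1 CPM in control ewes (SD, n = 4 each). There 3 of 4 BPA libraries lay below all 4 controls and the groups overlapped through BPA library 918. The log2 fold change, BPA over control, was -0.31 ± 0.24 SE (95% interval -0.85 to 0.22, adjusted p = 0.728, edgeR quasi-likelihood test), and it was -0.088 without visceral control 908 and -0.23 without visceral BPA 977. In subcutaneous fat TF averaged 29.5 ± 9.97 CPM in BPA ewes and 33.9 ± 1.53 CPM in control ewes. Here too 3 of 4 BPA libraries lay below all controls, while BPA library 918 lay above them, and the log2 fold change was -0.19 ± 0.20 (95% interval -0.63 to 0.26, adjusted p = 0.729), and -0.14 with controls 902 and 924 left out. Visceral minus subcutaneous, the BPA effects on TF differed by -0.13 ± 0.34 (adjusted p = 1.0).

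As background, 96 of 13535 genes (0.709%) passed an adjusted p of 0.05 for BPA in subcutaneous fat, 82 higher (0.606%) and 14 lower (0.103%). In visceral fat 0 of 14774 genes (0%) passed in edgeR, with 1103 at an unadjusted p under 0.05 and 5 called by DESeq2. None of the 14793 genes (0%) passed for the difference between both BPA effects in edgeR, with 917 at an unadjusted p under 0.05 and 11 called by DESeq2. Of the 6 genes, 5 had enough counts to be tested, and 0 of 5 passed for BPA in either depot. Their median log2 fold change was -0.19 in subcutaneous fat, beside -0.006 over all genes tested, and -0.14 in visceral fat, beside 0.002.

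TFRC, the receptor that takes up transferrin, varied more within groups than between them. It stood at 64.6, 67.4, 65.5 and 129 CPM in visceral BPA libraries 910, 918, 977 and 984, against 44.3, 127, 50.7 and 69.6 CPM in visceral controls 902, 908, 924 and 928. In subcutaneous fat it was 62.7, 35.3, 56.0 and 68.1 CPM in BPA libraries 918, 922, 941 and 977, against 60.4, 36.6, 54.7 and 118 CPM in controls 902, 924, 928 and 931. In 3 of the 4 groups a single library stood well above the rest, namely visceral BPA 984, visceral control 908 and subcutaneous control 931. All 4 groups overlapped.

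The BPA effect on TFRC was 0.17 ± 0.34 on the log2 scale in visceral fat (95% interval -0.58 to 0.93, adjusted p = 0.882) and -0.26 ± 0.32 in subcutaneous fat (95% interval -0.97 to 0.44, adjusted p = 0.761). Its sign turned without 1 high library in each depot, to -0.13 without visceral BPA 984 and to 0.15 without subcutaneous control 931. It was -0.006 without visceral control 902, and in subcutaneous fat -0.62 without controls 902 and 924. Intervals of this width do not show equal levels. Visceral over subcutaneous, TFRC differed by 0.54 ± 0.27 in BPA ewes, and by 0.038 with the animal number as a block. That blocked value rests on ewes 918 and 977, the 2 BPA numbers in both depots. In control ewes the value was 0.11 ± 0.38, and it turned to -0.30 without visceral control 908, to -0.10 without subcutaneous control 924 and to -0.26 without subcutaneous controls 902 and 924.

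SLC11A2, the transporter that moves iron out of endosomes, was the steadiest of the tested genes. It ranged from 6.64 CPM in visceral BPA 977 to 13.0 CPM in subcutaneous BPA 922, a span of 1.95-fold over 16 libraries. Group means were 8.57 ± 1.48 CPM in visceral BPA fat, 9.15 ± 1.03 in visceral control fat, 10.6 ± 1.75 in subcutaneous BPA fat and 9.89 ± 1.13 in subcutaneous control fat. All groups overlapped, and the counts behind the values sum to 1153 over all libraries. BPA over control, the log2 fold change was -0.080 ± 0.22 in visceral fat (95% interval -0.57 to 0.41, adjusted p = 0.919) and 0.10 ± 0.21 in subcutaneous fat (95% interval -0.37 to 0.57, adjusted p = 0.868). Without visceral BPA 977 the visceral value was 0.003, and without controls 902 and 924 the subcutaneous value was 0.25. Visceral over subcutaneous, it was -0.32 ± 0.24 in BPA ewes (-0.22 without visceral 977) and -0.12 ± 0.20 in control ewes (-0.004 without subcutaneous 902 and 924).

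FTH1, the ferritin heavy chain with the ferroxidase site, was higher in visceral than in subcutaneous fat. Its level was 1304, 1038, 657 and 1193 CPM in visceral BPA libraries 910, 918, 977 and 984, against 757, 405, 589.5 and 603 CPM in subcutaneous BPA libraries 918, 922, 941 and 977. In control ewes it was 1016, 1423, 995 and 1221 CPM in visceral libraries 902, 908, 924 and 928, against 539, 462, 699 and 961 CPM in subcutaneous libraries 902, 924, 928 and 931. The depots did not overlap in control ewes, and in BPA ewes they overlapped through visceral library 977 alone. All 5 pairs of the same number had more FTH1 in visceral fat, by 1.09-fold in number 977 up to 2.15-fold in number 924.

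Visceral over subcutaneous, the log2 fold change of FTH1 was 0.81 ± 0.25 in BPA ewes (1.76-fold) and 0.80 ± 0.23 in control ewes (1.74-fold). In BPA ewes it was 0.98 without visceral 977 and 0.30 with the animal number as a block. In control ewes it was 0.47 without subcutaneous controls 902 and 924, which held the lowest FTH1 levels of their group. Of the 5 genes with enough counts, 2 (TF and FTH1) did not overlap between depots in control ewes and 1 (TF) in BPA ewes. Over all genes tested, 19.9% did not overlap in control ewes and 18.5% in BPA ewes. Nothing is read from those counts, since the genes were chosen with depot values known. FTH1 was not told apart between BPA and control ewes, with a log2 fold change of -0.14 ± 0.22 in visceral fat (95% interval -0.62 to 0.34, adjusted p = 0.854) and -0.17 ± 0.25 in subcutaneous fat (95% interval -0.71 to 0.38, adjusted p = 0.811). Without visceral BPA 977 the visceral value was 0.011, and without subcutaneous control 931 the subcutaneous value was 0.068, against -0.48 without controls 902 and 924.

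FTL, the ferritin light chain, is the partner subunit of FTH1 and belongs to a wider list of 73 other iron genes in the table. It fell in subcutaneous fat of BPA ewes, to 11.5, 8.95, 11.8 and 14.6 CPM in libraries 918, 922, 941 and 977, against 26.0, 29.5, 20.5 and 32.1 CPM in controls 902, 924, 928 and 931. All 4 BPA libraries lay below all 4 controls, as did 3.24% of all genes tested. The log2 fold change was -1.20 ± 0.21 SE (95% interval -1.65 to -0.74, adjusted p = 0.0312, edgeR quasi-likelihood test, n = 4 each) and 40 to 65 counts lie behind each BPA value. The call was lost, with the fold change between -1.21 and -1.08, when BPA library 918, 922 or 941 or control 902, 924 or 931 was left out (adjusted p = 0.0517 to 0.0979). It was also lost without controls 902 and 924 together, at -1.14 with an adjusted p = 0.221, where no gene of the whole table was called.

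In visceral fat FTL was 19.9, 17.6, 11.9 and 25.1 CPM in BPA libraries 910, 918, 977 and 984, against 30.5, 22.0, 37.2 and 23.7 CPM in controls 902, 908, 924 and 928. There 3 of 4 BPA libraries lay below all controls, and the log2 fold change of -0.59 ± 0.25 did not pass (adjusted p = 0.658; -0.45 without 977). The difference between the depots in the BPA effect was 0.61 ± 0.33 (adjusted p = 0.866), so the effects are not shown to differ. The ratio of heavy to light chain TPM was 47.5 to 65.4 in visceral BPA fat, 26.7 to 64.5 in visceral control fat, 41.3 to 65.6 in subcutaneous BPA fat and 15.6 to 34.0 in subcutaneous control fat. This ratio was chosen after the values were seen and has no test. FTL has 4 exon blocks and 898 bases and shares exon bases with the opposite-strand gene TULP2, which stood at 11.4 to 20.6 CPM in subcutaneous BPA fat and 12.0 to 15.6 CPM in subcutaneous control fat. Ferritin genes also have near copies in mammalian genomes, and the handling of reads with several matches is not given, so both ferritin levels are uncertain to that extent.

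SLC40A1, the iron exporter ferroportin, had the lowest BPA estimate of the 5 tested genes in both depots, but passed the test in neither. In subcutaneous fat it was 148, 129, 116 and 159.9 CPM in BPA libraries 918, 922, 941 and 977, against 271, 317, 143 and 278 CPM in controls 902, 924, 928 and 931. The groups overlapped through control 928, and 2 of 4 BPA libraries lay below every control. The log2 fold change was -0.86 ± 0.23 (95% interval -1.36 to -0.37, unadjusted p = 0.00285, adjusted p = 0.129). The edgeR adjusted p missed the threshold, whereas DESeq2 gave 0.0166. Without control 928 the value was -1.06 with an edgeR adjusted p of 0.0296, and without controls 902 and 924 it was -0.58 with an adjusted p of 0.427.

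In visceral fat SLC40A1 was 295, 193, 125 and 199 CPM in BPA libraries 910, 918, 977 and 984, against 338, 255, 399 and 278 CPM in controls 902, 908, 924 and 928. There 3 of 4 BPA libraries lay below every control and 1, library 910, lay among them. The log2 fold change was -0.63 ± 0.24 (95% interval -1.17 to -0.10, unadjusted p = 0.0241, adjusted p = 0.658), and -0.48 without library 977. The difference between both BPA effects was 0.22 ± 0.35 (adjusted p = 0.999). Visceral over subcutaneous, SLC40A1 differed by 0.54 ± 0.23 in BPA ewes, by 0.71 without visceral BPA 977 and by 0.033 with the animal number as a block. In control ewes the value was 0.32 ± 0.24, 0.53 with the block and 0.57 without subcutaneous controls 902 and 924.

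**Figure D2:**
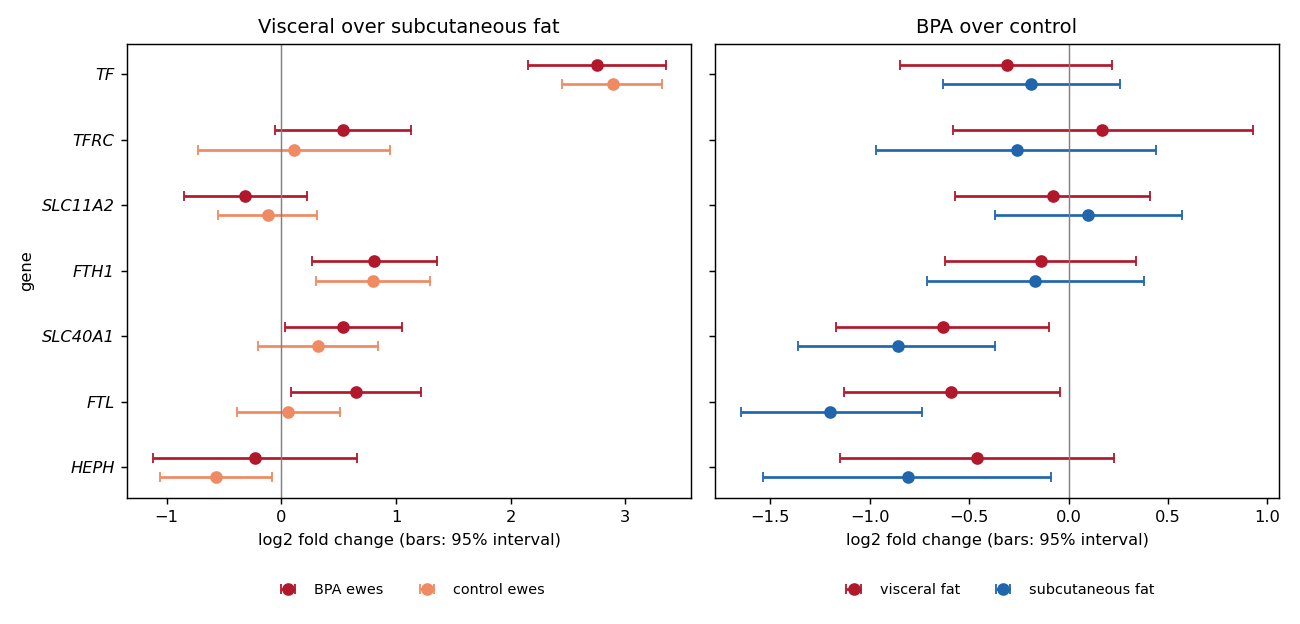
Fitted log2 fold change (horizontal axes) with its 95% interval for 5 of the 6 genes and for FTL and HEPH, visceral over subcutaneous fat in BPA and control ewes (left) and BPA over control in visceral and subcutaneous fat (right). TF lies at 2.75 and 2.89 on the left, and on the right the lowest value is that of FTL in subcutaneous fat, at -1.20. For the 5 genes the intervals on the left are no test, because these genes were chosen with depot values known.

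CP, the soluble iron oxidase of plasma, was near the limit of detection. It gathered 16 counts over all 16 libraries, with 8 libraries at 0 and a highest level of 1.12 CPM in subcutaneous BPA 922 (5 counts), followed by 0.678 CPM in subcutaneous control 924 (4 counts). Among the libraries at 0, such a count allows up to 0.229 CPM in visceral control 928, the deepest of them. It allows up to 0.985 CPM in subcutaneous BPA 941, the shallowest (3 counts, counting error only). These limits use library totals before edgeR scaling, unlike the CP levels above, so the scales differ somewhat. CP was not tested, and no difference between groups is detectable at this depth. HPS3, which shares exon bases with CP, stood at 30.6 to 58.3 CPM.

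HEPH, the membrane-bound relative of CP, was counted throughout. It averaged 10.3 ± 4.66 CPM in visceral BPA fat, 14.2 ± 1.34 in visceral control fat, 11.9 ± 5.19 in subcutaneous BPA fat and 20.9 ± 6.77 in subcutaneous control fat. BPA over control, the log2 fold change was -0.46 ± 0.31 in visceral fat (adjusted p = 0.696; -0.81 without 977) and -0.81 ± 0.33 in subcutaneous fat (adjusted p = 0.302; -0.53 without controls 902 and 924). In subcutaneous fat 3 of 4 BPA libraries lay below every control. Visceral over subcutaneous, HEPH differed by -0.23 ± 0.40 in BPA ewes (adjusted p = 0.755; -0.56 without visceral 977 and 0.24 with the animal number as a block) and by -0.57 ± 0.22 in control ewes (adjusted p = 0.114; -0.31 without subcutaneous 902 and 924), and neither passed.

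Macrophage markers moved beside SLC40A1 and FTL in subcutaneous fat. The summed level of the 10 markers in the table was 506, 328, 517 and 415 CPM in BPA libraries 918, 922, 941 and 977, against 846, 746, 614 and 735 CPM in controls 902, 924, 928 and 931. All 4 BPA sums lay below all 4 control sums, the separation that 3.24% of single genes showed. All 9 markers tested had lower estimates in BPA ewes, and 1 of them passed, TYROBP, an adaptor of myeloid receptors, at -1.75 ± 0.33 (adjusted p = 0.0447), where 0.103% of all genes were called lower. The TYROBP call was lost in 7 of 8 single omissions (adjusted p up to 0.142) and without controls 902 and 924 (-1.37, adjusted p = 0.264), while all 9 estimates stayed below 0 there. The other markers tested included the macrophage receptors CSF1R and MRC1, and MARCO had 25 counts in all and was not tested.

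In visceral fat the macrophage sums were 534, 677, 807 and 1198 CPM in BPA libraries 910, 918, 977 and 984, against 804, 966, 949 and 886 CPM in controls 902, 908, 924 and 928. These overlapped, with 5 of 9 tested markers lower and 0 called. In the same order of libraries, SLC40A1 was 295, 193, 125 and 199 CPM in BPA ewes and 338, 255, 399 and 278 CPM in control ewes. Red cell content was low throughout, with haemoglobin gene HBB at 71 counts in all and HBM at 0. The part of macrophage content in the SLC40A1 and FTL values was not tested.

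The marker sums of 3 other cell types also did not overlap between BPA and control libraries in subcutaneous fat. Of single genes, 3.24% lay wholly below and 4.20% wholly above the controls, and 0.103% were called lower and 0.606% higher. Progenitor markers summed to 1389 to 2259 CPM in BPA ewes and 2523 to 3793 CPM in control ewes, with 7 of 7 tested genes lower and 1 called (THY1). Lymphocyte markers summed to 4.70 to 16.2 CPM in BPA ewes and 19.4 to 36.3 CPM in control ewes, with 3 of 3 tested genes lower and 0 called. Smooth muscle markers summed to 483 to 811 CPM in BPA ewes and 315 to 403 CPM in control ewes, with 6 of 6 tested genes higher and 1 called (LMOD1). The THY1 and LMOD1 calls were each lost in 6 of 8 single omissions (adjusted p up to 0.133) and without controls 902 and 924, at -0.90 (adjusted p = 0.252) and 1.31 (adjusted p = 0.221). In that omission 7 of 7 progenitor and 3 of 3 lymphocyte genes were lower and 5 of 6 smooth muscle genes higher. Endothelial marker sums overlapped, with 7 of 7 tested genes lower and 0 called (5 of 7 lower without controls 902 and 924). Adipocyte sums overlapped too, with 10 of 11 tested genes higher and 0 called (6 of 11 higher without controls 902 and 924). The part of these cells in the SLC40A1, FTL and HEPH values was not tested.

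**Figure D3:**
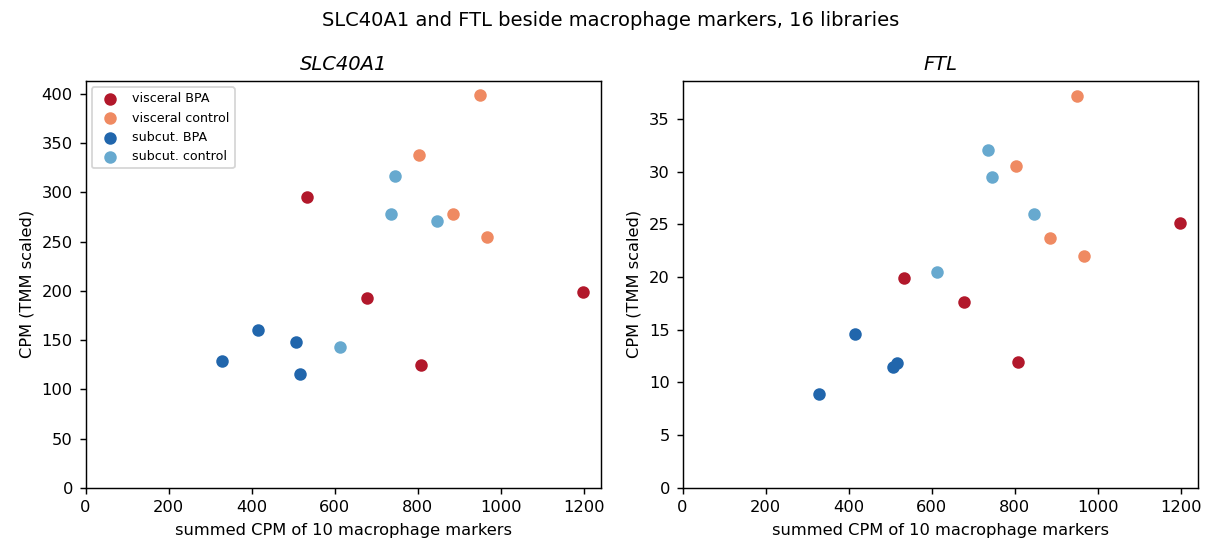
CPM of SLC40A1 (left) and FTL (right) in each of the 16 libraries against the summed CPM of 10 macrophage markers, linear axes from 0, points coloured by group. The 4 subcutaneous BPA libraries lie at the lower left, with marker sums of 328 to 517 CPM, and visceral BPA 984 lies at 1198 CPM of markers with 199 CPM of SLC40A1.

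The wider list of iron genes was compared by role, and 73 of 76 listed genes other than the 6 were in the table. For BPA in subcutaneous fat, 58 were tested, of which 0 rose and 1 fell (FTL), a share of 1.72% beside 0.709% of all genes. Their median log2 fold change was -0.034, beside -0.006 over all genes. The 7 tested genes of iron uptake and transport all had lower estimates (0 called, smallest adjusted p = 0.435). The 8 tested genes of haem synthesis all had higher estimates (median 0.21, 0 called, smallest adjusted p = 0.341), with ALAD at 0.51 ± 0.23. Genes of one pathway in the same libraries are not independent of each other.

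For BPA in visceral fat, 64 wider iron genes were tested and 0 passed in edgeR or DESeq2, with 3 at an unadjusted p under 0.05 and a median of -0.078 beside 0.002 over all genes. The smallest p-values belonged to FTL, SLC11A1, HFE and HMOX2. SLC11A1, the phagosomal metal transporter of macrophages and paralog of SLC11A2, stood at 1.06 ± 0.47 (adjusted p = 0.658), with 2.25, 2.39, 4.43 and 2.67 CPM in BPA libraries 910, 918, 977 and 984, against 1.53, 0.960, 2.33 and 0.821 CPM in controls 902, 908, 924 and 928. The groups overlapped, and 20 to 35 counts lie behind the BPA values and 10 to 27 behind the control values. HFE, the haemochromatosis protein that binds the transferrin receptor, stood at -0.36 ± 0.16, and haem oxygenase HMOX2 at 0.37 ± 0.18 (adjusted p = 0.658 each). TFR2, the second transferrin receptor, did not pass either, at 0.60 ± 0.35 in visceral fat (adjusted p = 0.676) and -0.50 ± 0.52 in subcutaneous fat (adjusted p = 0.712).

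Between depots the wider list moved in both directions. In BPA ewes 63 genes were tested, of which 5 were higher and 3 lower in visceral fat, 12.7% beside 9.07% of all genes (5.13% higher and 3.94% lower). In control ewes 63 were tested, of which 8 were higher and 4 lower, 19.0% beside 13.3% of all genes (7.17% higher and 6.16% lower). With the animal number as a block, 17 were called in control ewes, 13 higher and 4 lower, and all 12 were among them. In BPA ewes 4 were called with the block, of which 3 were among the 8. The list's median log2 fold change was 0.18 in both, beside 0.024 over all genes in BPA ewes and -0.007 in control ewes. The same 6 genes (ABCG2, ACO1, ALAS2, LTF, SLC39A8 and STEAP4) were called in both, which is 6 of the 8 calls in BPA ewes and 6 of the 12 in control ewes.

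LTF, lactoferrin, the iron-binding relative of transferrin in milk and neutrophil granules, moved in the same direction as TF. It was 5.05, 21.7, 12.1 and 3.59 CPM in visceral BPA libraries 910, 918, 977 and 984, against 2.05, 0.224, 2.31 and 1.57 CPM in subcutaneous BPA libraries 918, 922, 941 and 977. In control ewes it was 7.82, 6.05, 22.1 and 52.3 CPM in visceral libraries 902, 908, 924 and 928, against 0, 1.69, 0.945 and 0.817 CPM in subcutaneous libraries 902, 924, 928 and 931. Visceral libraries spread widely but none reached down to the subcutaneous ones. The log2 fold change was 2.77 ± 0.69 in BPA ewes (adjusted p = 0.0340) and 4.66 ± 0.86 in control ewes (adjusted p = 0.00684), on at most 10 counts per subcutaneous library, so its size is uncertain. The BPA call was lost without visceral BPA 918 or any 1 of the 4 subcutaneous BPA libraries, with adjusted p up to 0.0902.

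Among regulators and transporters, ACO1, the cytosolic aconitase that also serves as an iron regulatory protein, rose by 1.13 ± 0.26 in visceral fat of BPA ewes (adjusted p = 0.0237) and by 1.40 ± 0.24 in control ewes (adjusted p = 0.00443). It averaged 334 ± 96.3 CPM in visceral BPA fat against 150.4 ± 41.4 in subcutaneous BPA fat, and 327 ± 83.7 in visceral control fat against 123 ± 36.1 in subcutaneous control fat. SLC39A8, a zinc and iron importer, rose by 1.57 ± 0.39 in BPA ewes (adjusted p = 0.0340) and by 1.76 ± 0.44 in control ewes (adjusted p = 0.0242). STEAP4, a metalloreductase of adipocytes, fell to 4.48 ± 1.06 CPM in visceral BPA fat, against 15.1 ± 6.42 in subcutaneous BPA fat (-1.76 ± 0.33, adjusted p = 0.0124). In control ewes it fell to 4.35 ± 1.64 CPM in visceral fat, against 17.9 ± 4.25 in subcutaneous fat (-2.05 ± 0.29, adjusted p = 0.00189). SCARA5, a receptor for L-ferritin in mouse, fell by 1.0 ± 0.18 in control ewes (adjusted p = 0.00693) and stood at -0.70 ± 0.20 in BPA ewes (adjusted p = 0.0520). Progenitor markers summed to 1323 to 1386 CPM in visceral and 2523 to 3793 CPM in subcutaneous control fat, without overlap (19.9% of single genes). In BPA ewes these sums overlapped. Called lower in visceral fat were CD34 in BPA ewes (1 of 7 tested) and CD34 and COL1A1 in control ewes (2 of 7). Of all genes, 3.94% were called lower in BPA ewes and 6.16% in control ewes. The part of progenitors in these depot values was not tested.

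In haem metabolism, ABCG2, an exporter of porphyrins and drugs, fell by 1.46 ± 0.24 in visceral fat of BPA ewes (adjusted p = 0.00853) and by 1.46 ± 0.17 in control ewes (adjusted p = 0.000651). ALAD, an early enzyme of haem synthesis, rose by 1.38 ± 0.17 in control ewes (adjusted p = 0.000967) and stood at 0.78 ± 0.28 in BPA ewes (adjusted p = 0.0995). ALAS2, the red cell form of the first enzyme and itself a red cell marker, rose by 2.24 ± 0.59 in BPA ewes (adjusted p = 0.0415) and by 1.61 ± 0.34 in control ewes (adjusted p = 0.0132), at no more than 7.87 CPM. HMOX1, the inducible haem oxygenase, was higher in visceral fat of BPA ewes by 1.0 ± 0.27 (adjusted p = 0.0427) and stood at 0.46 ± 0.15 in control ewes (adjusted p = 0.0617). Markers of macrophages, which express it, were also compared between depots. In BPA ewes 8 of 9 tested had higher estimates in visceral fat. Of these 3 were called, CD14, CD68 and TYROBP (1.57 ± 0.32, adjusted p = 0.0166), where 5.13% of all genes were called higher. How these 3 calls fared with libraries left out is not given here. In control ewes 4 of 9 were higher and 5 lower, with MRC1 called higher and ADGRE1 called lower. Of all genes there, 7.17% were called higher and 6.16% lower. The summed level was 534 to 1198 CPM in visceral BPA fat and 328 to 517 CPM in subcutaneous BPA fat, without overlap. Of single genes, 18.5% did not overlap between depots in BPA ewes. In control ewes the sums overlapped, at 804 to 966 CPM in visceral fat and 614 to 846 CPM in subcutaneous fat. The part of macrophage content in these depot values was not tested. ISCU, the scaffold of iron-sulphur clusters, was higher in visceral fat of control ewes by 0.65 ± 0.16 (adjusted p = 0.0221). It stood at 0.40 ± 0.27 in BPA ewes (adjusted p = 0.365). FBXL5, the iron-sensing ligase that marks IREB2 for decay, was lower in visceral fat of BPA ewes by 0.60 ± 0.16 (adjusted p = 0.0399). Its value in control ewes was -0.24 ± 0.16 (adjusted p = 0.337). Among the other calls in control ewes, named after their values were seen, were NCOA4 (higher) and SLC39A14 (lower).

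Several of these calls hung on single libraries. In BPA ewes leaving out 1 library gave 2 to 15 calls on the list, the 15 without visceral 977. The HMOX1 call was lost in 7 of 8 such omissions, SLC39A8 and FBXL5 in 6, ALAS2 and LTF in 5 and ACO1 in 3 (adjusted p up to 0.129). With the animal number as a block the BPA calls of ACO1 (0.60, adjusted p = 0.118), SLC39A8 (0.88, adjusted p = 0.126), ALAS2 (1.88, adjusted p = 0.121), HMOX1 (0.56, adjusted p = 0.336) and FBXL5 (-0.77, adjusted p = 0.0518) were lost, while those of LTF, STEAP4 and ABCG2 held. In control ewes single omissions gave 7 to 13 calls, and the NCOA4 and SLC39A14 calls were lost in 6 of 8, SLC39A8 in 4 and ISCU in 3 (adjusted p up to 0.0952). Without subcutaneous controls 902 and 924, 6 calls were left, those of ALAS2, SLC39A8, ISCU, NCOA4 and SLC39A14 being among the losses. For the difference between both BPA effects, no wider iron gene passed in edgeR or DESeq2 (0 of 63, with 3 at an unadjusted p under 0.05). The smallest p was that of SLC11A1, at 2.34 ± 0.70 (adjusted p = 0.649), followed by NFS1 at -0.76 ± 0.29 (0.724), FECH at -0.47 ± 0.22 (0.794) and ABCB10 at -0.42 ± 0.23 (0.859).

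**Figure D4:**
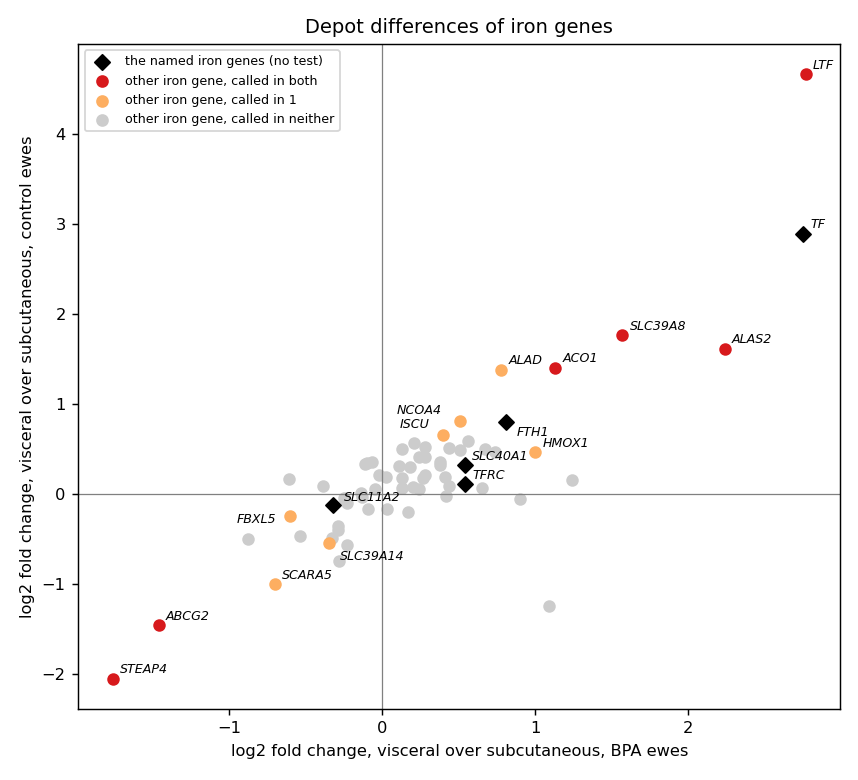
Log2 fold change, visceral over subcutaneous fat, of the iron genes tested in both treatments (1 is not shown), in BPA ewes (horizontal axis) and control ewes (vertical axis). Black diamonds are 5 of the 6 genes described here (no test), red points were called in both treatments, orange in 1 and grey in neither; TF and LTF lie at the upper right, STEAP4 and ABCG2 at the lower left.

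The genes whose log2 CPM was most like that of TF over the 16 libraries, among 12639 genes with a symbol, were BARX1 (Pearson r = 0.978), NKX3-2 (0.960) and FBLIM1 (0.957). BARX1 and NKX3-2 are homeobox regulators of the embryonic stomach wall in mouse, and FBLIM1 is an adaptor of cell adhesion. All 3 share the depot difference, with BARX1 at 27.0 CPM over the 8 visceral libraries and 0.749 CPM over the 8 subcutaneous ones, so these values restate it. With the group means removed, the most alike were TSC22D4 (0.870), GSTA1-1 (0.823) and AGTRAP (0.802).

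For TFRC the most alike gene was PA2G4, a regulator of growth and ribosome production, both over all libraries (0.864) and within groups (0.907). For FTH1 it was the ribosomal protein gene RPL19 (0.971), followed by the secreted peroxidase GPX3 (0.957) and RRAGD (0.955), a GTPase that signals amino acids. SLC40A1 was most like FTL (0.890), then TCAF1 (0.882) and EPS15 (0.876), and within groups most like KLF6 (0.886). SLC11A2 was most like ZKSCAN8 (0.863). These are descriptions over 16 libraries that share animals, depot and depth, chosen as the highest of many, and with Spearman ranking 8 of the 30 genes named by the rule came out again.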

How the data were processed

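RNA of 16 fat samples was sequenced after depletion of ribosomal RNA, with a low-input kit, per the labels' protocols. Per the submitters' processing notes, reads passed through FastQC 0.11.5 and MultiQC 0.9, were aligned with STAR 2.6.0c and counted with featureCounts of Subread 1.6.1. The genome build, strand setting and treatment of multiply matched reads were not given in these sources. The deposited table is named as normalized, but the authors' values are whole counts (0 of them not whole) with totals from 3046126 to 14305764, and were treated as raw counts. Of 10441 LOC identifiers, 406 received a symbol through a RefSeq table of ARS-UI_Ramb_v3.0, SLC11A2 among them.

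Genes were filtered with filterByExpr (10 counts at the median depth, 15 in total), scaled by TMM and passed to edgeR 4.0.16 in R 4.3.3 for its quasi-likelihood test (two-sided, Benjamini-Hochberg over all genes tested, called under 0.05). Intervals of 95% use the moderated degrees of freedom. CPM are counts over the TMM-scaled total, TPM use the deposited exon lengths, and log2 CPM used a prior count of 2. BPA was set against control within each depot, visceral against subcutaneous fat within each treatment, and the BPA effects of both depots against each other. The fit was tested on simulated data. Alternatives were DESeq2 1.42.0, its size factors, no filter, a filter of 50 counts in 4 libraries, a fit of all 16 libraries, a block on the animal number, and leaving out each library in turn. Omission of subcutaneous controls 902 and 924 together was added after seeing the data.

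The genes, lists and comparisons were chosen with earlier results of these data known. The text names the 6 genes, the relatives FTL, TFR2, SLC11A1, HEPH and LTF, and in each comparison up to 8 called genes of the wider iron list, or the 4 with the smallest p where none was called. It also names the 3 genes most alike to each of the 5 counted genes, over all libraries and within groups, though values are given for part of these. A called gene of the wider list is counted but not reported by name here. Same-numbered libraries of both depots were checked by the correlation, over 14793 genes, of their deviations from group means. It was 0.286, 0.401 and 0.332 for the 3 control numbers, and 0.167 and 0.031 for BPA numbers 918 and 977. All were taken as pairs, because the number was read as that of the animal, which the labels do not state.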

Additional observations from a re-analysis of the deposited data

Results flagged for a closer look

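TF was far higher in 1 visceral control library than in its group, at 364 CPM in library 908 with the other 3 between 204 and 225 CPM (gap over range 0.869). TFRC was likewise high in 1 visceral BPA library, at 129 CPM in library 984 with the other 3 between 64.6 and 67.4 CPM (gap over range 0.956). Both exceed Dixon's critical value for 4 libraries. Of 20 groups of 4 libraries examined, chance flags about 1 in 20. Without visceral control 908, the BPA effect on TF in visceral fat was -0.088, and without visceral BPA 984 that on TFRC was -0.13.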

How the results depend on the processing

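The number of genes called for BPA in subcutaneous fat, 96, was 464 with DESeq2, 173 without a filter, 54 with a filter of 50 counts, 46 with all 16 libraries in one fit and 0 without controls 902 and 924, and 32 to 128 when 1 library was left out. In visceral fat, where 0 were called, DESeq2 called 5, and leaving out a library gave 0 to 0. Between depots in BPA ewes the 1250 calls were 2197 with DESeq2, 2408 with all 16 libraries, 892 with the animal number as a block and 369 to 2206 with 1 library left out. In control ewes the 1928 calls were 2772 with DESeq2, 2631 with the block, 1138 without subcutaneous controls 902 and 924 and 1043 to 1755 with 1 library left out. For the difference between both BPA effects, DESeq2 called 11 genes, the animal number as a block 19 and single omissions 0 to 0.

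With the replicate block, the difference between both BPA effects turned to -0.075 for TFRC, -0.63 for FTH1, -0.49 for SLC40A1 and -0.061 for FTL, and the depot difference of HEPH in BPA ewes to 0.24. In BPA ewes, where 2 numbers occur in both depots, the block left 3 of the 8 calls on the wider iron list and added FDX1. The block left all 12 in control ewes and added ALAS1, APP, BMP6, HSPA9 and PCBP1 (all 6 named after their values were seen). No block could be fitted for BPA against control, which share no numbers. Without subcutaneous controls 902 and 924, TFRC between depots in control ewes turned to -0.26.

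Values whose sign turned when 1 library was left out ranged, for BPA in subcutaneous fat, from -0.46 to 0.15 for TFRC, -0.009 to 0.19 for SLC11A2, -0.30 to 0.068 for FTH1 and -0.78 to 0.061 for TFR2. In visceral fat they ranged from -0.13 to 0.58 for TFRC, -0.17 to 0.003 for SLC11A2 and -0.27 to 0.011 for FTH1. Between depots they ranged from -0.56 to 0.035 for HEPH in BPA ewes, and in control ewes from -0.30 to 0.53 for TFRC, -0.12 to 0.70 for TFR2 and -0.10 to 0.17 for FTL. The difference between both BPA effects ranged from -0.36 to 0.12 for TF, -0.21 to 0.19 for FTH1 and -0.008 to 0.42 for SLC40A1. The cause of these turns was not tested. None of these genes was called for the comparison named. The depot direction of TF was the same in all 16 settings for control ewes and all 15 for BPA ewes. That is a description, since the depot difference was part of how TF was chosen. With 4 ewes per group and 3046126 counts in the shallowest library, CP and small changes of the other genes could not be resolved.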
